A study of Mus musculus with 29 samples.

Results

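The 10 genes described here are the immediate early and AP-1 genes Fos, Fosb, Jun, Junb, Jund, Egr1, Ier2, Atf3, Zfp36 and Nr4a1, chosen by symbol from the 30025 genes of the deposited expression table. All 10 were found, and all 10 passed the filter on low values, among 15409 genes that did so. RNA was sequenced from stem and multipotent progenitor cells sorted from the bone marrow of C57BL/6J mice. WT mice (WT/WT in the labels) were compared with 5A3+/del mice (WT/DEL), which carry a heterozygous germ-line deletion of the 5A3 interval on chromosome 5 in every tissue, and no other allele or agent was given to either genotype. Kit+ lineage- Sca1+ CD41- CD48- cells were divided by CD150 into CD150hi HSC, CD150lo HSC and CD150neg MPP, which the labels also call HSC. Each genotype had 5 mice, aged 12.42 to 13.85 weeks, and each population had 5 libraries per genotype except 5A3+/del CD150neg MPP, which had 4. The 3 populations of a mouse share a code in the labels, so that each mouse contributed up to 3 libraries.

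Immediate early genes are switched on within minutes of a growth factor, cytokine or stress signal, through kinases that act on factors already present in the cell. FOS and JUN proteins pair through leucine zippers to form AP-1, a dimer that binds DNA and controls genes for proliferation, survival and differentiation, and ATF3 can join the same dimers. EGR1 and NR4A1 are transcription factors with roles in the quiescence of HSC, and ZFP36 is an RNA-binding protein that shortens the life of cytokine and immediate early mRNAs. These mRNAs are known to respond to tissue dissociation and cell sorting as well as to signals in the animal.

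The stretches just upstream of 4 of these genes are shown because their mRNAs differed most clearly between mice and moved together. The promoter windows are those of RefSeq (GRCm38.p6, from 250 bases before to 50 bases after the start of the gene), 8 of the 10 genes were searched, and the last 120 bases before the start are printed 5′ to 3′ on the strand of the gene, with motif matches in capitals. Fos lies on the plus strand at chr12:85473770-85473889, Fosb on the minus strand at chr7:19310046-19310165, Zfp36 on the minus strand at chr7:28379229-28379348, and Nr4a1 on the plus strand at chr15:101266726-101266845.
Fos: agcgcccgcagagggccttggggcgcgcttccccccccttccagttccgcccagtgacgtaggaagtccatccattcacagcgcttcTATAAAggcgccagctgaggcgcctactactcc
Fosb: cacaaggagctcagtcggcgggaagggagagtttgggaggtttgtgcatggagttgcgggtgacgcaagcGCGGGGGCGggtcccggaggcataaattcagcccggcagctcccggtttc
Zfp36: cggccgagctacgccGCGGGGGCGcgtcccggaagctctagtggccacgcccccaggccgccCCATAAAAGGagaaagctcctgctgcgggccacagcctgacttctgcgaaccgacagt
Nr4a1: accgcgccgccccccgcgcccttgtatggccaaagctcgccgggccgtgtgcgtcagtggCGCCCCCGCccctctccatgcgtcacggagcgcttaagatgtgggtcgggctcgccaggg

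Both strands were searched for the EGR site GCGGGGGCG, the CArG box bound by serum response factor, the TATA motif TATAAA, the cyclic AMP response element TGACGTCA and the AP-1 sites TGAGTCA and TGACTCA. An EGR site began 50 bases before the start of Fosb and 105 bases before that of Zfp36, and on the opposite strand 60 bases before that of Nr4a1. Zfp36 also held a CArG box 58 bases before its start, and Fos a TATA motif 33 bases before its start. Of all 32851 windows, 2.91% held the EGR site, 1.63% the CArG box, 13.6% the TATA motif, 1.79% the cyclic AMP response element and 5.2% an AP-1 site. These matches describe letters and do not show that a factor was bound.

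The labels were checked on genes inside the deletion before the results. Over 6 of these genes and 3 populations, the mean of the 5A3+/del libraries was 0.14 to 0.63 times that of the WT libraries, and in 14 of 18 comparisons the genotypes did not overlap. The number of fragments per library, obtained from the steps of the low values, was 21229490 to 38797569. Kit was measured at 111 to 203 FPKM (fragments per exon length and library size), and mean Slamf1, which encodes CD150, went from 14.4 FPKM in WT CD150hi HSC to 0.146 FPKM in WT CD150neg MPP. Among markers of other cells, the sum of 8 neutrophil and monocyte genes was 1104 FPKM in the CD150hi library and 1646 FPKM in the CD150lo library of WT mouse 1, against 177 to 587 FPKM in the other libraries. Lyz2, 1 of the 8, was 148 to 254 FPKM over all libraries and made up much of the lower sums. WT mouse 3 stood apart from all other mice in Xist, at 234 to 319 FPKM against at most 0.47 FPKM, and in the sum of 4 Y-linked genes, at no more than 0.124 FPKM against 51.4 to 71.4 FPKM.

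The 10 genes covered a wide range of levels in these cells. Zfp36 had the highest mean FPKM over the 29 libraries, 391 ± 98.8 (SD), which ranked 79 among all genes, followed by Egr1 with 228 ± 68.2. Jun (140 ± 18.7) and Fos (106 ± 43.3) came next, and Fosb (65.7 ± 24.8), Nr4a1 (50.2 ± 22.3) and Ier2 (45.2 ± 10.7) lay below them. Junb (25.6 ± 7.53) was higher than Jund (11.5 ± 3.66), and Atf3 was the lowest at 2.02 ± 1.76 FPKM, with 7 to 461 fragments per library. The gaps between Jun and Fos, Fos and Fosb, Fosb and Nr4a1, and Nr4a1 and Ier2 were smaller than the larger SD of the pair, and the other neighbouring pairs were further apart. Exons of Jun, Jund and Egr1 overlap an annotated gene on the opposite strand (BC042782, Gm11175 and Gm17507), and reads of the 2 strands were not told apart here.

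**Figure D1:**
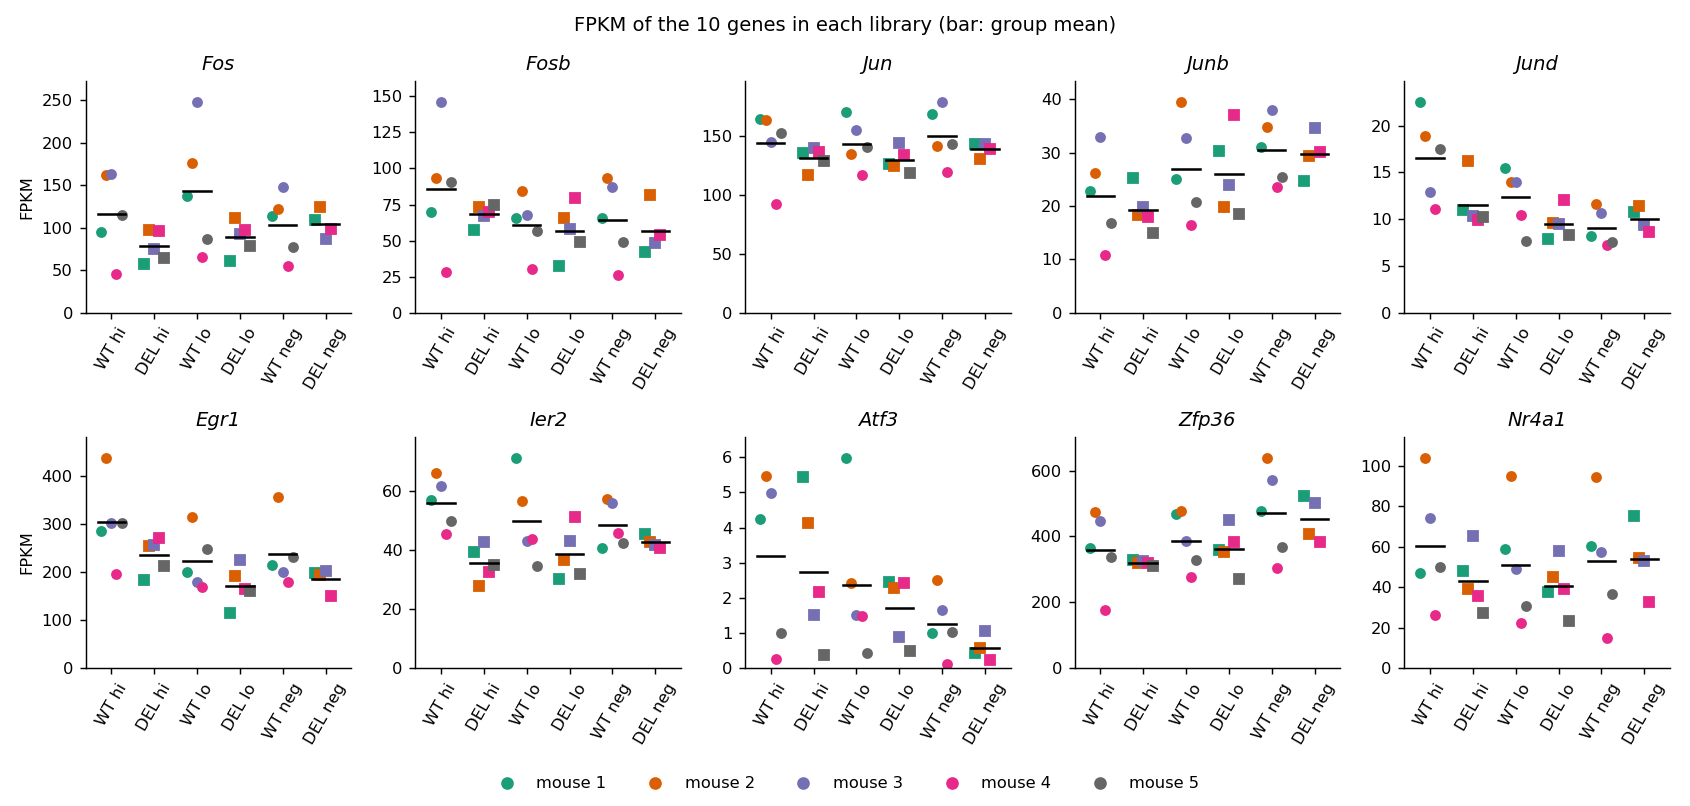
FPKM (linear axis from 0) of each gene in each of the 29 libraries, by genotype (circles WT, squares DEL, which is 5A3+/del) and CD150 population, with colours for the mouse number within a genotype and a bar at the group mean. WT mouse 4 was the lowest WT library for all 10 genes in CD150hi HSC, for 7 in CD150lo HSC and for 9 in CD150neg MPP.

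The largest differences in these genes lay between mice of 1 genotype. Nr4a1, which encodes an orphan nuclear receptor, was measured in CD150hi HSC of WT mice 1 to 5 at 47, 104, 74.4, 26.1 and 50 FPKM, in CD150lo HSC at 58.7, 94.7, 49.2, 22.5 and 30.6 FPKM, and in CD150neg MPP at 60.5, 94.5, 57.6, 14.8 and 36.7 FPKM. In all 3 populations WT mouse 2 was the highest and WT mouse 4 the lowest. Averaged over the populations of a mouse, Nr4a1 was 97.7 FPKM in mouse 2 and 21.1 FPKM in mouse 4, a ratio of 4.63.

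Fos, which encodes the founding partner of JUN in AP-1, was measured in CD150hi HSC of WT mice 1 to 5 at 95.2, 162, 163, 45.7 and 115 FPKM, in CD150lo HSC at 138, 176, 248, 65.2 and 87.1 FPKM, and in CD150neg MPP at 114, 122, 148, 55.5 and 77.5 FPKM. Mouse 3 was the highest in each population and mouse 4 the lowest. Its relative Fosb gave 69.6, 93.1, 146, 28.1 and 90.9 FPKM in CD150hi HSC, 65.5, 84.5, 67.6, 30.3 and 56.7 FPKM in CD150lo HSC, and 65.7, 93.6, 87.5, 26.1 and 48.8 FPKM in CD150neg MPP. Again mouse 4 lay below every other WT mouse, by a factor of 3.56 from the highest mouse after averaging over populations.

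Among 5A3+/del mice Nr4a1, Fos and Fosb were closer together. Nr4a1 was 48, 39.4, 65.2, 35.9 and 27.5 FPKM in CD150hi HSC of mice 1 to 5, and the ratio of the highest to the lowest mouse, averaged over populations, was 2.3. For Fos the 5A3+/del libraries were 57.9, 97.4, 75.3, 96.5 and 65.1 FPKM in CD150hi HSC, 61.4, 112, 93.2, 98 and 78.8 FPKM in CD150lo HSC, and 109, 124, 87.4 and 98.3 FPKM in CD150neg MPP. The ratio of the highest to the lowest mouse was 1.55 for Fos and 1.68 for Fosb. Atf3 was different, with the largest ratio of the 10 genes in both genotypes, 6.44 among 5A3+/del mice and 6.07 among WT mice. 5A3+/del mouse 5, the lowest of its genotype for Nr4a1, Fos and Atf3, had no CD150neg library. Its mean covered 2 populations, so the 5A3+/del ratios of these genes are not fully matched to the WT ratios.

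The difference between mice was tested with limma in a fit with mouse and population as fixed terms, an F test that was chosen after the values had been seen. Among WT mice, 5 of the 10 genes passed an adjusted p of 0.05, against 0.630% of all genes tested. They were Nr4a1 (adjusted p = 0.000221), Fos (adjusted p = 0.000338), Fosb (adjusted p = 0.00192), Zfp36 (adjusted p = 0.0284) and Junb (adjusted p = 0.0406). Egr1 (adjusted p = 0.101), Atf3 (adjusted p = 0.0984), Jun (adjusted p = 0.17), Jund (adjusted p = 0.496) and Ier2 (adjusted p = 0.64) did not pass in limma. Among 5A3+/del mice, 0 of the 10 passed, against 0.389% of all genes, and 4 of the 10 had an unadjusted p under 0.05, against 11.6% of all genes. The difference between the genotypes in this respect was not tested.

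The result among WT mice rested on WT mouse 4. Without it 0 of the 10 genes passed the limma F test, against 0.203% of all genes, and 6 of the 10 had an unadjusted p under 0.05, against 10.1% of all genes. Nr4a1 then had an adjusted p of 0.0584, within a range of 3.85e-05 to 0.0584 over 16 alternatives, and Fos one of 0.124, within a range of 0.000126 to 0.124. The calls for Junb and Zfp36 were the least firm, since Junb passed in 6 and Zfp36 in 12 of these 16 limma fits.

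Terms for the mouse took up 90.3% of the squared deviations of Nr4a1 from its group means, and 89.9% of those of Fos. Such terms take up a part even where mice do not differ, so this share is not a share of variance between mice. The share was 85.6% for Fosb, 80.2% for Jun, 78.9% for Zfp36, 76.9% for Junb, 72.2% for Atf3 and 72% for Egr1. Jund (47.6%) and Ier2 (41.7%) were nearer to the median of all genes tested, 39.4%. A large share did not require a large spread: the SD of Jun within groups was 0.19 on the log2 scale, below the median of 0.33 over all genes, whereas those of Atf3, Nr4a1 and Fosb were 0.83, 0.67 and 0.58.

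**Figure D2:**
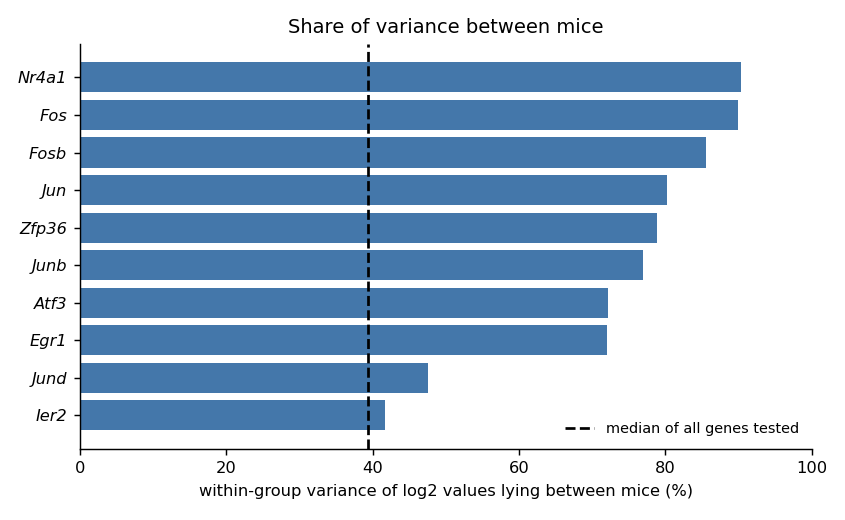
Bars from 0 give, for each of the 10 genes, the percent of squared deviations from group means that terms for the mouse took up. The axis names this the variance lying between mice, but part of it arises even where mice do not differ. Normalized log2 values of 29 libraries of 10 mice were used. The dashed line marks the median of all genes tested, 39.4%, and all 10 bars end to its right.

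The genes were also summarized as the mean of their z-scores in each library. WT mouse 2 had the highest mean over its 3 libraries (1.00), then WT mice 3 (0.84), 1 (0.47) and 5 (-0.12), and WT mouse 4 the lowest (-1.23). The 5A3+/del mice lay between -0.81 (mouse 5, with 2 libraries) and 0.00 (mouse 3), so that the WT mice spread to both sides of them. The SD on the log2 scale was larger in WT than in 5A3+/del libraries for 9, 9 and 10 of the 10 genes in CD150hi HSC, CD150lo HSC and CD150neg MPP, against 49.4%, 55.4% and 46.1% of all genes. Without WT mouse 4 these counts were 6, 7 and 10 of 10. An extreme case was Zfp36 in CD150hi HSC, with deposited values of 364, 474, 448, 178 and 338 FPKM in WT mice. In 5A3+/del mice they were 328, 319, 325, 319 and 311 FPKM. The SD was 117 in WT and 6.69 in 5A3+/del libraries, and 106 and 12.8 after normalization.

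**Figure D3:**
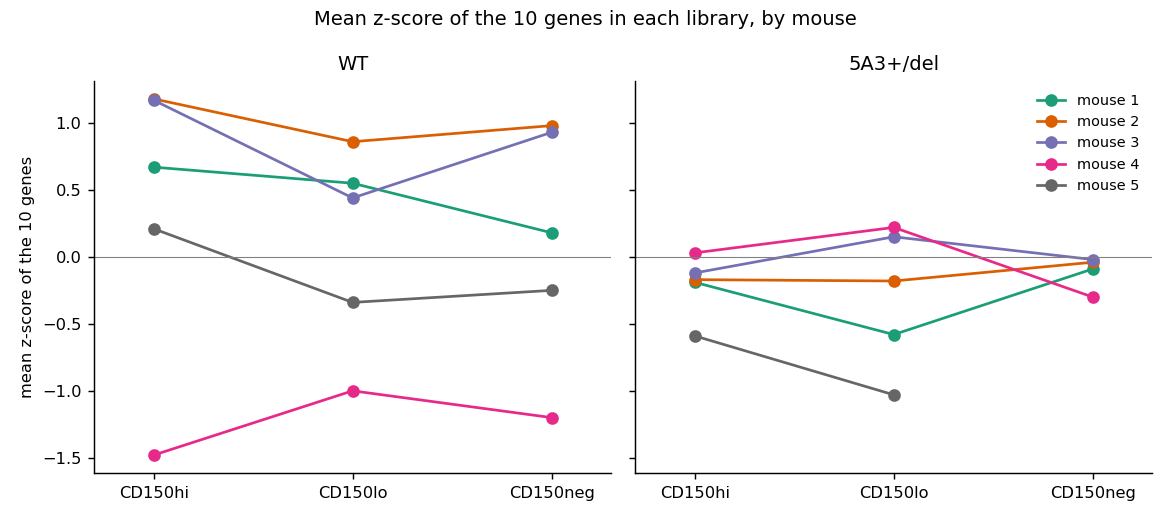
Mean z-score of the 10 genes (normalized log2 values scaled over 29 libraries) in each library, with a line for each mouse across the 3 populations, WT on the left and 5A3+/del on the right. WT mouse 4, with a mean of -1.23, lies below every other WT library, WT mouse 2 lies between 0.86 and 1.18, and the 5A3+/del libraries between -1.03 and 0.22.

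Other values moved with the mouse. The mean log2 level of 9 heat shock genes was 5.87 to 6.17 in WT mouse 1, 5.30 to 5.55 in WT mice 2 and 3, 4.77 to 4.86 in WT mouse 5 and 4.52 to 4.64 in WT mouse 4, and 4.62 to 5.08 in the 5A3+/del libraries. Over the 29 libraries, of which up to 3 share a mouse, its Pearson r with the mean z-score was 0.65. WT mice 1, 2 and 3 were 13.28 weeks old, WT mouse 5 was 12.85 and WT mouse 4 was 12.42 weeks old, whereas the 5A3+/del mice of 12.42 weeks had the highest scores of their genotype. The sum of neutrophil and monocyte markers, of which Lyz2 was a large part where the sum was low, followed the scores less (r = 0.19, on log2 values). WT mouse 3, the highest WT mouse for Fos, Fosb and Junb, was the mouse that expressed Xist and not the Y-linked genes. Within WT mice, age and sex-linked expression cannot be told apart from the mouse itself, and the part of the heat shock values in the result was not tested.

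Whether the deletion changed these genes was asked within each population by limma on all 29 libraries, on the log2 scale of FPKM + 1. The fit took libraries of the same mouse as independent when it estimated the spread. Its p-values and intervals for the deletion can therefore be too confident, most of all for genes that differed strongly between mice. In CD150hi HSC 0 of 10 genes passed, against 0.156% of all genes. In CD150lo HSC 0 of 10 passed, against 0.0324%, and likewise 0 of 10 in CD150neg MPP, against 0.0454%. At an unadjusted p under 0.05 there were 2, 0 and 0 of the 10, against 13.1%, 6.87% and 4.27% of all genes. The median log2 difference over the 10 genes, 5A3+/del minus WT, was -0.16, -0.17 and -0.08, against 0.00, 0.01 and -0.00 over all genes. Of the 10 differences 9, 9 and 6 were negative, against 49.3%, 48.0% and 50.2% over all genes. The 10 genes were measured in the same mice, so their signs are not independent. In bulk RNA, fewer cells of a type and less RNA per cell cannot be told apart.

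Ier2, a nuclear protein gene of the early response, showed the smallest p. In CD150hi HSC it was 56.8, 66, 61.5, 45.5 and 49.7 FPKM in WT mice 1 to 5 and 39.2, 27.9, 42.6, 32.5 and 34.8 FPKM in 5A3+/del mice 1 to 5. The means were 55.9 ± 8.4 and 35.4 ± 5.73 FPKM (SD, n = 5 each). The log2 difference was -0.63 (SE 0.16), which missed the threshold after adjustment over all genes (limma adjusted p = 0.0782). With a trend in the variance prior the limma adjusted p was 0.0434 and with a stricter filter 0.0459, within a range of 0.0434 to 0.39 over 20 alternatives. In CD150lo HSC the log2 difference was -0.32 (95% interval -0.65 to 0.01) and in CD150neg MPP -0.19 (-0.54 to 0.16), where the libraries overlapped.

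Jund, a JUN relative, was 22.5, 18.9, 12.9, 11.1 and 17.5 FPKM in WT CD150hi HSC and 11, 16.2, 10.3, 9.91 and 10.2 FPKM in 5A3+/del CD150hi HSC. The groups overlapped through 5A3+/del mouse 2, which lay above WT mice 3 and 4. The log2 difference of -0.46 (SE 0.19) had a limma adjusted p of 0.306. For Fos it was -0.38 (95% interval -1.03 to 0.26), for Nr4a1 -0.37 (-1.19 to 0.46) and for Fosb -0.12 (-0.83 to 0.60) in the same population. All 3 intervals reached well to both sides of 0. For Jun the interval was narrow, from -0.28 to 0.25 around -0.02, in a fit that took libraries of the same mouse as independent.

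The size of the median difference depended on single mice. Without WT mouse 4, the median over the 10 genes was -0.46, -0.31 and -0.21 with falling CD150, whereas leaving out any other mouse gave medians no lower than -0.25, -0.25 and -0.12. At the other end, the median was -0.07 in CD150hi HSC without WT mouse 3, 0.01 in CD150lo HSC without 5A3+/del mouse 5, and 0.04 in CD150neg MPP without WT mouse 3. WT mouse 3 was the only mouse that expressed Xist and not the Y-linked genes. Sex-linked expression was thus not balanced between the genotypes, and its part in the differences was not tested. The number of genes that passed remained 0 of 10 in each population when any mouse was left out.

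**Figure D4:**
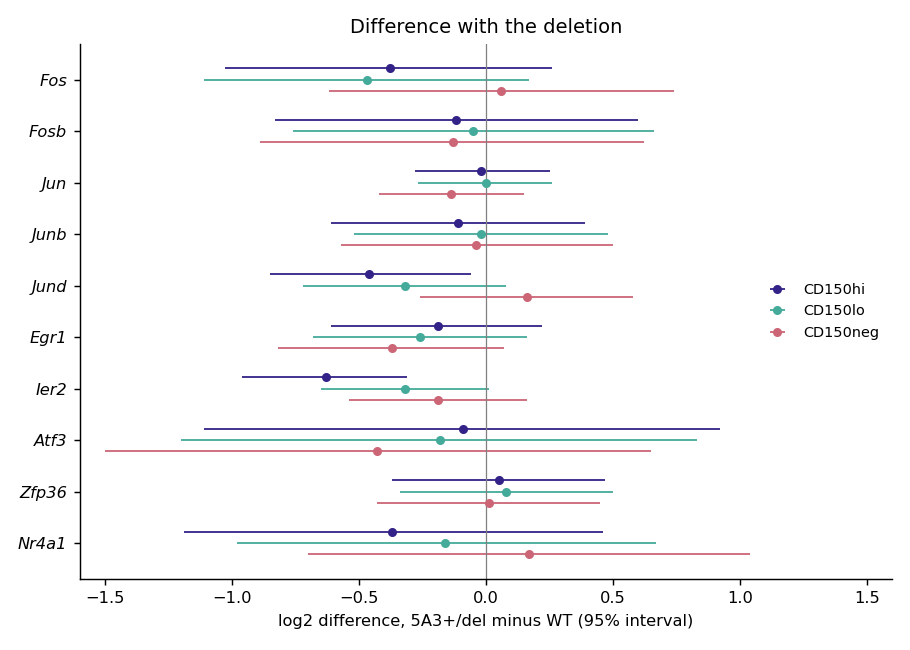
Points are log2 differences of FPKM + 1, 5A3+/del minus WT, from limma for each gene in CD150hi HSC, CD150lo HSC and CD150neg MPP, with 95% intervals as bars (n = 5 and 5 libraries, or 5 and 4 in CD150neg). Most points lie left of 0 and nearly all intervals cross it, and the Ier2 and Jund intervals in CD150hi HSC lie below it.

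Populations were compared next, first in the fit of 6 group means, which does not use the pairing of libraries by mouse. Within WT mice alone, 1 of 10 genes passed between CD150hi HSC and CD150neg MPP, against 10.0% of all genes, and 0 of 10 between CD150hi and CD150lo HSC, against 3.53%, or between CD150lo HSC and CD150neg MPP, against 0.188%. Within 5A3+/del mice 0 of 10 passed in each comparison, against 6.16%, 3.18% and 0.0389% of all genes in the same order. At an unadjusted p under 0.05 the counts were 2, 0 and 1 in WT mice, against 21.8%, 14.1% and 8.75% of all genes, and 2, 1 and 0 in 5A3+/del mice, against 16.9%, 13.3% and 4.95%. With the mouse as a block, 2 of 10 genes passed between CD150hi HSC and CD150neg MPP in WT mice, against 10.7% of all genes, and 1 of 10 in 5A3+/del mice, against 6.72%.

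Because mice differed so much, the comparison within mice was also averaged over both genotypes, with the mouse as a block, a choice made after the values had been seen. Between CD150hi HSC and CD150neg MPP, 4 of 10 genes passed, against 14.3% of all genes: Jund and Atf3 were higher and Junb and Zfp36 lower in CD150hi HSC. Between CD150hi and CD150lo HSC, 1 of 10 passed, against 8.99%, which was Egr1, and between CD150lo HSC and CD150neg MPP 0 of 10 passed, against 0.312%. In the last comparison Atf3 and Zfp36 had an unadjusted limma p under 0.05. The share of all genes at that level was not computed, so this count has no background to be set against. The median log2 difference over the 10 genes was near that of all genes in each case (0.12, -0.04 and 0.07 against -0.01, -0.00 and -0.01 for CD150hi minus CD150lo, CD150lo minus CD150neg and CD150hi minus CD150neg), as the genes moved in both directions.

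Junb and Jund, both partners of FOS proteins, differed in opposite directions. Jund in CD150neg MPP was 8.18, 11.6, 10.7, 7.28 and 7.6 FPKM in WT mice and 10.8, 11.4, 9.41 and 8.6 FPKM in 5A3+/del mice 1 to 4, lower than the CD150hi library of the same mouse in 9 of 9 mice after normalization. Averaged over genotypes, the difference of CD150hi minus CD150neg was 0.53 on the log2 scale (SE 0.13, limma adjusted p = 0.00775).
Junb was 22.9, 26.3, 32.9, 10.9 and 16.9 FPKM in WT CD150hi HSC and 31, 34.8, 38.1, 23.6 and 25.5 FPKM in WT CD150neg MPP. In 5A3+/del mice it was 25.2, 18.3, 19.9, 18 and 15 FPKM in CD150hi HSC and 24.7, 29.4, 34.6 and 30.1 FPKM in CD150neg MPP. It was lower in CD150hi HSC in 8 of 9 mice, with a log2 difference of -0.47 (SE 0.11, limma adjusted p = 0.00793).

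Zfp36 was 476, 639, 571, 305 and 367 FPKM in CD150neg MPP of WT mice and 522, 408, 500 and 382 FPKM in those of 5A3+/del mice. Every mouse had less in its CD150hi HSC (9 of 9). The log2 difference was -0.46 (SE 0.10, limma adjusted p = 0.00217), or 0.727-fold. In WT mice alone the call passed only with the mouse as a block (log2 difference -0.51, limma adjusted p = 0.0147, range 0.0147 to 0.338 over 20 alternatives).

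Atf3, which encodes a stress-induced AP-1 partner, was 4.25, 5.47, 4.98, 0.257 and 1.01 FPKM in CD150hi HSC of WT mice and 0.997, 2.51, 1.66, 0.119 and 1.03 FPKM in their CD150neg MPP. In 5A3+/del mice it was 5.45, 4.13, 1.52, 2.17 and 0.372 FPKM in CD150hi HSC and 0.43, 0.566, 1.07 and 0.224 FPKM in CD150neg MPP. The levels overlapped between populations, yet the CD150hi library was higher in 9 of 9 mice after normalization, by 0.02 to 2.06 on the log2 scale. The averaged difference was 1.02 (SE 0.24, limma adjusted p = 0.00542), or 2.03-fold on the scale of FPKM + 1, which understates the change of so low a gene. In 5A3+/del mice alone it passed only with the mouse as a block (log2 difference 1.32, limma adjusted p = 0.0252, range 0.0252 to 0.651 over 19 alternatives).

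Egr1 was 285, 438, 302, 196 and 303 FPKM in CD150hi HSC and 201, 315, 179, 169 and 249 FPKM in CD150lo HSC of WT mice. In 5A3+/del mice it was 184, 254, 256, 270 and 212 FPKM against 115, 193, 226, 165 and 161 FPKM. CD150hi HSC had the higher deposited value in every mouse, and after normalization 9 of 10 mice were higher and 1 was equal. The averaged log2 difference was 0.43 (SE 0.10, limma adjusted p = 0.00928). Against CD150neg MPP it was 0.32 (SE 0.11, limma adjusted p = 0.0509), and that of Fosb was 0.38 (SE 0.13, limma adjusted p = 0.052), both just short of the threshold. For Fos (-0.11, 95% interval -0.33 to 0.10), Jun (-0.08, -0.23 to 0.07), Ier2 (0.04, -0.20 to 0.27) and Nr4a1 (0.11, -0.15 to 0.36) the intervals included 0.

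**Figure D5:**
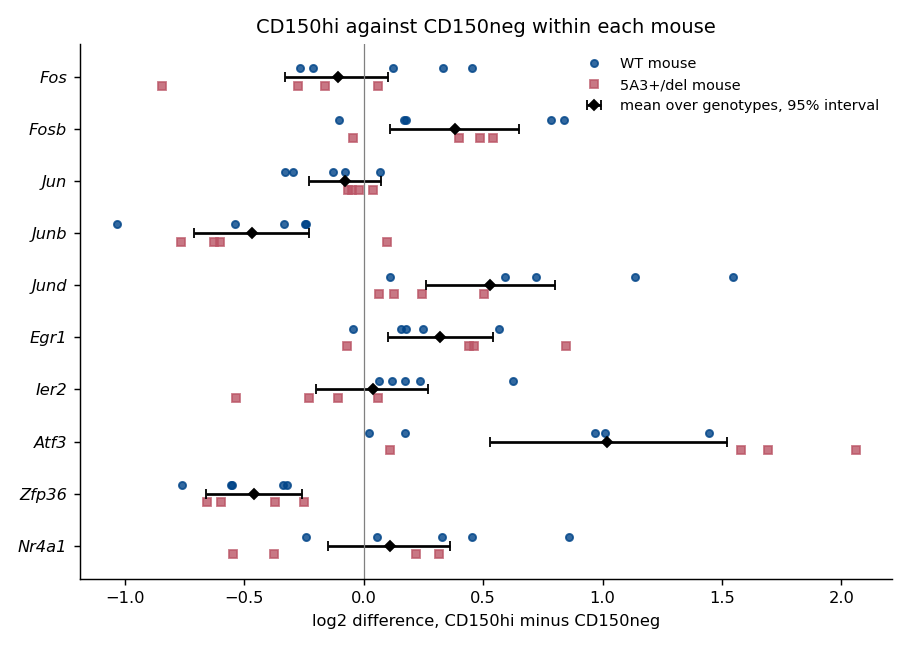
Each circle (WT, 5 mice) or square (5A3+/del, 4 mice) is the normalized log2 value in CD150hi HSC minus that in CD150neg MPP of the same mouse, and diamonds with bars are the limma mean over both genotypes with its 95% interval. All 9 mice lie right of 0 for Jund and Atf3 and left of 0 for Zfp36, and 8 of 9 lie left of 0 for Junb.

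The Jund difference in WT mice alone was 0.82 (SE 0.19, limma adjusted p = 0.00542), and it was higher in 5 of 5 mice. Without WT mouse 1 it was 0.64 with a limma adjusted p of 0.0615, within a range of 0.00239 to 0.0615 over 20 alternatives. The CD150hi library of that mouse had the highest Jund value of all 29 libraries and a sum of neutrophil and monocyte markers of 1104 FPKM, where the other WT CD150hi libraries lay between 268 and 526 FPKM and the WT CD150neg libraries between 210 and 280 FPKM. None of the 8 markers had a mean under 0.1 FPKM in either group. In 5A3+/del mice, where the sums were 199 to 306 FPKM in CD150hi HSC and 178 to 495 FPKM in CD150neg MPP, the Jund difference was 0.20 (95% interval -0.22 to 0.62). Mean Lyz2 alone was 194 and 195 FPKM in these 5A3+/del groups, and 179 and 172 FPKM in the WT ones. The part of neutrophils and monocytes in the result was not tested.

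Whether the population differences changed with the deletion was tested on the difference of the differences. For each of the 3 pairs of populations 0 of 10 genes passed in limma, against 0% of all genes, and 0, 0 and 1 gene had an unadjusted p under 0.05, against 3.98%, 5.00% and 7.96%. That gene was Jund, whose gap between CD150hi HSC and CD150neg MPP was smaller in 5A3+/del mice by -0.62 on the log2 scale (95% interval -1.19 to -0.04, limma adjusted p = 0.596). For Ier2 the same change was -0.44 (-0.92 to 0.03), and for Zfp36 0.04 (-0.57 to 0.65).

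Among 10 other AP-1 and bZIP partner genes that passed the filter, of 12 listed, 0 passed with the deletion in any population. Unadjusted p fell under 0.05 for 2, 0 and 0 in CD150hi, CD150lo and CD150neg cells, against 13.1%, 6.87% and 4.27% of all genes. In WT mice 2 were higher and 1 lower in CD150hi HSC than in CD150neg MPP, where 10.0% of all genes passed. Maff, a small MAF protein, was higher (log2 difference 0.94, limma adjusted p = 0.0128), as was Batf, a partner of JUN proteins in lymphoid cells (0.67, adjusted p = 0.0378). Creb1, which binds the cyclic AMP response element, was lower (-0.61, adjusted p = 0.00269). Jdp2, a repressor of AP-1, was lower than in CD150lo HSC (-0.74, adjusted p = 0.0416), where 3.53% of all genes passed. In 5A3+/del mice 0 of the 10 passed in these comparisons, against 6.16% and 3.18% of all genes. The log2 differences there were 0.84 for Maff, 0.30 for Batf, -0.19 for Creb1 and -0.05 for Jdp2. The change of these gaps with genotype passed for 0 of the 10, against 0% of all genes. Fosl2 was the only one of the 10 that passed the limma F test between WT mice (adjusted p = 0.0276), against 0.630% of all genes.

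Of 29 other immediate early genes, 0 passed with the deletion. Negative differences numbered 24, 19 and 17 in CD150hi HSC, CD150lo HSC and CD150neg MPP, against 49.3%, 48.0% and 50.2% of all genes. The medians were -0.20, -0.08 and -0.14. At an unadjusted p under 0.05 there were 4, 2 and 1, against 13.1%, 6.87% and 4.27% of all genes. Between WT mice 6 of the 29 passed the F test, against 0.630% of all genes. They were Nr4a2, Nr4a3, Dusp1, Klf6, Klf10 and Sgk1, of which Nr4a2 and Nr4a3 are relatives of Nr4a1. Averaged over genotypes, 8 of the 29 were lower and 2 higher in CD150hi HSC than in CD150neg MPP, where 14.3% of all genes passed. The phosphatase genes Dusp6 (-0.92, limma adjusted p = 6.19e-05), Dusp5 (-0.67, adjusted p = 0.000408) and Dusp2 (-0.45, adjusted p = 0.0214), which switch off MAP kinases, and the antiproliferative gene Btg2 (-0.72, adjusted p = 0.000346) were among the lower ones. Nr4a2 (0.72, limma adjusted p = 0.00216) and the stress phosphatase subunit Ppp1r15a (0.60, adjusted p = 0.000576) were higher.

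Among 19 genes for upstream kinases and ternary complex factors, 0 passed with the deletion in limma. In the 3 populations 2, 1 and 1 had an unadjusted p under 0.05, against 13.1%, 6.87% and 4.27% of all genes. Srf, the factor that binds the CArG box, was lower in CD150hi HSC than in CD150neg MPP of WT mice (4.82 ± 1.41 against 9.32 ± 1.94 FPKM, log2 difference -0.81, limma adjusted p = 0.00122). Its coactivator gene Mkl2 was higher (16.1 ± 0.552 against 12.4 ± 1.37 FPKM, log2 difference 0.40, limma adjusted p = 0.00823). Averaged over genotypes, 14.3% of all genes passed in this comparison. Mkl2 was again higher (0.35, limma adjusted p = 0.00171) and 4 of the 19 were lower in CD150hi HSC. They were Srf (-0.57, adjusted p = 0.00136), the other coactivator gene Mkl1 (-0.33, adjusted p = 0.0456), Elk3 (-0.30, adjusted p = 0.0469) and Rps6ka3 (-0.27, adjusted p = 0.0315). Of the 9 heat shock genes tested, 0 passed with the deletion. Their medians were -0.31, -0.30 and -0.45 in CD150hi HSC, CD150lo HSC and CD150neg MPP. In each population 2 of the 9 had an unadjusted p under 0.05, against 13.1%, 6.87% and 4.27% of all genes. Between WT mice 5 of the 9 passed the F test, against 0.630% of all genes. Between 5A3+/del mice 1 of the 9 passed, Hsph1 (limma adjusted p = 0.00383), against 0.389% of all genes.

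The genes outside the 10 whose levels followed the mean z-score most closely were sought over all 15409 genes and 29 libraries, as a description. Nr4a2 had the highest Pearson r (0.87), followed by Dusp1 and the prostaglandin synthase gene Ptgs2 (0.79 each), the cell cycle inhibitor gene Cdkn1a (0.76), 5730494M16Rik and the heat shock gene Hsph1 (0.74 each), Nr4a3 (0.72), Bhlhe40 (0.71), and Cebpb and Trib1 (0.70 each). Of these 10, 3 were on the list of other immediate early genes. With values centred on the group means 6 of the 10 were again among the closest, and Nr4a2 had an r of 0.92. Up to 3 libraries share a mouse, so these libraries are not independent.

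Among the 10 genes themselves the correlation over 29 libraries was above 0 in 43 of 45 pairs, with a median Pearson r of 0.44 and a range of -0.10 to 0.78. Junb and Zfp36 were the closest pair (0.78). Nr4a1 (r = 0.86), Fos and Fosb (0.81 each) followed the mean z-score of the 10 genes, in which they are included, most closely, and Jund least (0.56). Zfp36 had the highest r, 0.92, when values were centred on the group means.

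The positions of these genes in the annotation of the mm9 genome, which the deposited table uses, are as follows. Jun lies on chromosome 4 (94715725 to 94718913, minus strand), Fosb (19888070 to 19895394, minus strand) and Zfp36 (29161803 to 29164274, minus strand) on chromosome 7, and Jund (73221638 to 73224515, plus strand), Ier2 (87185230 to 87186751, minus strand) and Junb (87500811 to 87502617, minus strand) on chromosome 8. Fos lies on chromosome 12 (86814840 to 86818223, plus strand), Egr1 on chromosome 18 (35020861 to 35024638, plus strand), Atf3 on chromosome 1 (192994175 to 193007219, minus strand) and Nr4a1 on chromosome 15 (101097277 to 101105223, plus strand). All 10 are protein coding, and none of them lies on chromosome 5, which holds the deleted interval.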

How the data were processed

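The authors amplified RNA of sorted cells, sequenced it with paired ends and deposited 1 table of FPKM for 30025 genes in 29 libraries. The submitters' processing notes name Bowtie 0.12.2, HTSeq and mm9. Libraries were grouped by genotype and cell type in the labels, and mice were matched across populations by a code in the labels. The 10 genes and the other lists were chosen with earlier results of these data known. The named genes of each list are the up to 4 with the smallest unadjusted p in any of 9 contrasts, the 10 genes most like the mean z-score, and others named after their values were seen.

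The filter asked for FPKM of 1 or more in 4 or more libraries. The log2 of FPKM + 1 was quantile normalized across libraries. limma 3.58.1 in R 4.3.3 was fitted to 6 group means, two-sided, with Benjamini-Hochberg adjustment over all 15409 genes and a threshold of 0.05. In all text an adjusted p is from limma. FPKM without counts cannot enter a count model. Fragments per library came from steps of the low values, of which 98.24% to 98.69% were whole within 0.02, for the 29279 genes (97.52%) matched to the annotation. Amplified fragments are not independent molecules, so that precision at depth covers counting error only. The group and mouse fits were run on simulated data, in which libraries varied independently apart from a shift given to WT mouse 4 in some genes. That run cannot show how the fits behave where libraries of a mouse vary together. Python 3.11.15 and pandas 2.3.3 read the table.

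Libraries of a mouse come from the same animal, so that the pairing is by the labels. Over all genes the deviations of 28 such pairs correlated with a median r of 0.08 (-0.03 for other mice of the genotype), and the replicate numbers of WT and 5A3+/del mice pair nothing. Alternatives covered the pseudocount, filter, normalization, variance prior, libraries fitted, replicate block, age and leaving out each mouse.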

Additional observations from a re-analysis of the deposited data

Results flagged for a closer look

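Over 60 groups of 4 or 5 libraries (10 genes in 6 groups), 3 had a library far from the rest of its group by Dixon's criterion, and chance gives about 3. Jun in WT CD150hi HSC was 92.5 FPKM in mouse 4, against 145 to 165 FPKM in the other 4 mice. Jund in 5A3+/del CD150hi HSC was 16.2 FPKM in mouse 2, against 9.91 to 11 FPKM in the others. Egr1 in 5A3+/del CD150neg MPP was 150 FPKM in mouse 4, against 194 to 202 FPKM in the others.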

How the results depend on the processing

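Of 3804 values recomputed under an alternative, 3753 stayed on the same side of the threshold or within the spread between replicates, 0 called values reversed, and 165 values that did not pass changed sign. With the deletion in CD150hi HSC, 1 of 10 genes (Ier2) passed with FPKM of at least 10 in at least 1 library and 1 with a trend in the variance prior. With the replicate block, 2 genes passed for CD150hi minus CD150neg in WT mice and 1 in 5A3+/del mice; leaving out 1 mouse gave 0 to 1 in WT mice, with 0 without WT mouse 1, and the block changed no other count of calls among the 10 genes. For differences between WT mice, leaving out 1 mouse gave 0 to 6 genes, with 0 without WT mouse 4 and 3 without WT mouse 2, 5A3+/del mouse 2 or 5A3+/del mouse 4. Averaged over genotypes, CD150hi minus CD150lo gave 2 genes with the stricter filter and 2 with median scaling, and 1 to 2 when 1 mouse was left out, with 2 without WT mouse 3.

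Over all genes, calls with the deletion in CD150hi HSC numbered 24, but 100 with the trend, 0 with only the groups compared and 4 without WT mouse 4. In CD150lo HSC they were 5, 31 and 0 (74 without WT mouse 5), and in CD150neg MPP 7 and 0 with only the groups compared. Between populations the calls numbered, in WT mice, 544 for CD150hi minus CD150lo (291 with only the groups compared, 330 without WT mouse 5), 1548 for CD150hi minus CD150neg (1022 and 1030) and 29 for CD150lo minus CD150neg (1 with the block, 64 with the trend, 0 to 69 without 1 mouse). They numbered, in 5A3+/del mice, 490 (292 with the stricter filter), 949 (449 with only the groups compared, 624 without 5A3+/del mouse 3) and 6 (0 with a pseudocount of 0.1, 0 without 5A3+/del mouse 1). Differences between WT mice were called for 97 genes (31 to 122 without 1 mouse) and between 5A3+/del mice for 60 (15 to 73 without 1 mouse, 33 to 102 in other settings). Averaged over genotypes, 1385 and 2210 genes passed for CD150hi against the other populations (859 and 1434 with the stricter filter), and 48 for CD150lo minus CD150neg (15 without 5A3+/del mouse 3). The causes were not tested. Without 1 mouse the median over the 10 genes ranged from -0.46 to -0.07 in CD150hi HSC, -0.31 to 0.01 in CD150lo HSC and -0.21 to 0.04 in CD150neg MPP. With 4 or 5 mice per group, differences between the genotypes smaller than the spread between mice were not detectable, above all for Fos, Fosb, Nr4a1 and Atf3.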
